A study of Mus musculus with 6 samples.

Results

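MHC class I genes encode the heavy chains that, paired with the light chain B2m, hold peptides at the cell surface. The set examined here held the classical heavy chains H2-K1 and H2-D1, the non-classical heavy chains H2-Q4, H2-Q6, H2-Q7, H2-T22, H2-T23, H2-T24 and H2-M3, and B2m (β2-microglobulin). The members were chosen by gene name, and 10 of the 53715 genes in the count table carried these names. All 10 passed the filter on low counts. They were compared in the piriform cortex, a cortical area that receives input from the olfactory bulb, of Gad2-Cre mice, in which Cre recombinase is made by cells that express the GABA-synthesising enzyme Gad2. The Caspase3 group (AAV-DIO-Caspase3, 3 libraries) had received an adeno-associated virus that delivers Cre-dependent caspase 3, an executioner protease of apoptosis. The GFP group (AAV-DIO-GFP, 3 libraries) had received Cre-dependent GFP by the same route, a stereotactic injection on 1 side. The labels give no strain, age, sex, sampled side or interval after injection, and do not say whether each library was a separate animal, so every p-value reflects library-to-library spread, part of which could be technical.

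Classical class I molecules present peptides from inside the cell to CD8 T cells, while non-classical molecules are more restricted in what they bind and often engage receptors of NK cells or unconventional T cells. In the healthy brain class I transcripts are low, and interferons are known to raise them through transcription factors such as Irf1 and the class I transactivator Nlrc5. Mouse studies have also placed class I molecules at synapses, where they bear on plasticity.

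The Caspase3 libraries held 20424581 to 24227361 counts each, the GFP libraries 22101015 to 26268377. At these depths 3 counts equal 0.118 to 0.142 CPM (counts scaled to library size with TMM factors), and this limit covers counting error only. The targeted gene Gad2 stood at 26.7, 38.5 and 38.0 CPM in the Caspase3 libraries, against 92.4, 118.0 and 103.7 CPM in the GFP libraries (log2 fold change -1.60 ± 0.15 SE, edgeR adjusted p = 0.00371). Cortical excitatory neuron markers such as Slc17a7 and Tbr1 were present in every library, and none of 8 passed the test (edgeR; none at an unadjusted p under 0.05, and none rose with DESeq2 or limma-voom). Striatal markers summed to 244.0 to 265.2 CPM in the Caspase3 libraries and 263.3 to 1291.1 CPM in the GFP libraries, with the highest sum in GFP replicate 3. None of 9 passed with edgeR, DESeq2 or limma-voom, and 7 had an unadjusted p under 0.05. Their median log2 fold change was -1.95, and -0.45 without GFP replicate 3. Each class I result is therefore also given without single libraries where that changed a call.

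The sequence upstream of the class I genes was examined because the members moved together. RefSeq promoter windows (GRCm38.p6) were found for 9 of the 10 members, all but H2-T24. The 250 bases before the annotated start site nearest to the gene start in the count table were searched on both strands. Each line below runs 5′ to 3′ on the gene's strand, and capitals mark the motif matches within the stretch. The TGACG of H2-T22 lies outside its stretch. The stretches are chr17:34000348-34000467 (minus strand) for H2-K1, chr17:35424668-35424807 and chr17:35439012-35439151 (plus strand) for H2-Q6 and H2-Q7, chr17:36042824-36042963 (minus strand) for H2-T22 and chr2:122147520-122147659 (plus strand) for B2m. They show a classical gene, the pair of H2-Q genes with the largest fold changes, a member with a small fold change and the light chain.
H2-K1: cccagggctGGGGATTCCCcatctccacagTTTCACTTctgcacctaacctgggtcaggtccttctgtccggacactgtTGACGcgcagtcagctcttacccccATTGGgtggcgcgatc
H2-Q6: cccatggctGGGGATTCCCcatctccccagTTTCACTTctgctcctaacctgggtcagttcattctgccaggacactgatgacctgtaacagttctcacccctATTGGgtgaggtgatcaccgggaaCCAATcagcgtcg
H2-Q7: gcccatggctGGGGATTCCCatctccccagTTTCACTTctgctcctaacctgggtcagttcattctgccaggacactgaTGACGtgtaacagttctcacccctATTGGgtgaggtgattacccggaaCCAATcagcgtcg
H2-T22: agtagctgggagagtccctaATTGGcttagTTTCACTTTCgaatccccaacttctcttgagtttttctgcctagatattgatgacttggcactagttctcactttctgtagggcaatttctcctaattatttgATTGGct
B2m: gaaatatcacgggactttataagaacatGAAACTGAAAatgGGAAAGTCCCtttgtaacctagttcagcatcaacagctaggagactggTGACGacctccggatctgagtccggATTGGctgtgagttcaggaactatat

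The interferon regulatory factor core AANNGAAA was found upstream of 9 of 9 members, as it was in 21.3% of 32851 RefSeq promoter windows of the same length. The longer core of the interferon-stimulated response element, a tandem GAAA repeat that contains the shorter one, was found upstream of H2-T22, H2-T23 and B2m, and in 2.98% of all windows. A NF-kappaB-like motif was found for 6 of 9 members against 4.11% of all windows. The half-site TGACG, part of the X box bound by factors of the class I enhanceosome, was found for 7 of 9 members against 17.8%, and the CCAAT box for 9 of 9 against 33.8%. In H2-K1, H2-D1, H2-Q7 and B2m, TGACG lay farther from the start site than every CCAAT match. In H2-Q4 (-73 to -69) and H2-M3 it lay between CCAAT matches, and in H2-T22 (-22 to -18) nearer the start site than any. Whether each TGACG lies in an X box was not tested. The shorter core, the NF-kappaB-like motif, TGACG and CCAAT occurred together upstream of H2-K1, H2-D1, H2-Q4, H2-Q7 and B2m, and in 0.0731% of all windows (24 of 32851). For each motif, all windows include those of the members themselves. Matches of different motifs did not overlap in these 9 windows, except the shorter core inside the longer one. The shorter core and the joint count were chosen after the sequences were seen, the H2 promoters are near copies of each other, and a match is a description of letters. The stretches of H2-D1 and H2-T23 overlap an exon annotated for these genes in GENCODE M21 and are not printed.

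**Figure D1:**
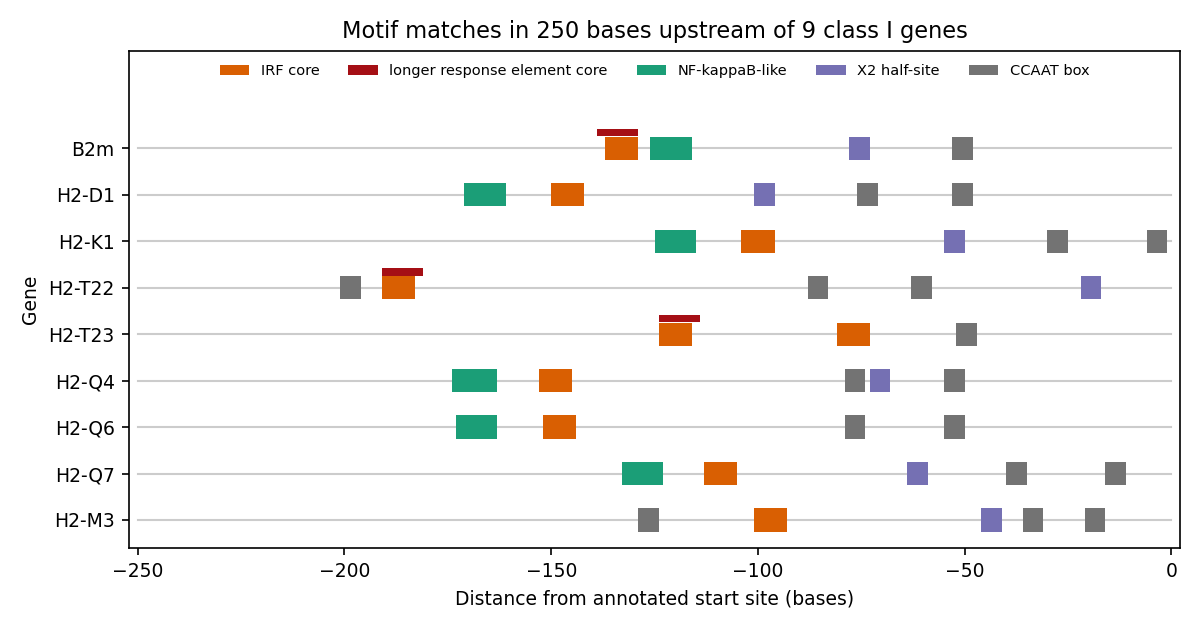
Motif matches in the 250 bases upstream of the annotated start sites of 9 class I genes (x axis, distance in bases; rows, genes; boxes, matches on either strand). The interferon regulatory factor core is present in 9 of 9 rows, and the NF-kappaB-like motif in 6 of 9.

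All 10 members were higher in every Caspase3 library than in any GFP library. Across the 16721 genes tested, 8.96% had groups that did not overlap with the Caspase3 group higher, and 6.29% with it lower. In edgeR's quasi-likelihood test with Benjamini-Hochberg adjustment over all tested genes, 8 of 10 members rose and 2, H2-T24 and H2-M3, did not pass, while 1.53% of all tested genes rose and 1.64% changed in either direction. The median log2 fold change of the 10 members was 2.07, against -0.00114 over all tested genes. The members were chosen with earlier results of these data known, so these contrasts with all genes are a description and no test of the set. DESeq2 called 9 of 10 (1.87% of its genes rose) and limma-voom 7 of 10 (1.29%). The count rested on GFP replicate 2. Without it, 2 members passed, H2-Q4 and H2-Q7, and 17 genes in all passed, although the members' median log2 fold change was 2.01.

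B2m, the light chain shared by the heavy chains, was the most abundant member. Its level was 250.5, 174.5 and 171.4 CPM in Caspase3 replicates 1, 2 and 3, against 67.7, 57.4 and 35.8 CPM in GFP replicates 1, 2 and 3. The lowest Caspase3 library was 2.53-fold above the highest GFP library, and GFP replicate 3 was the lowest of all. B2m rose 3.71-fold (log2 fold change 1.89 ± 0.24 SE, edgeR adjusted p = 0.00569), and its adjusted p was 0.0562 without GFP replicate 2. B2m is on chromosome 2 (122147686 to 122153083, GRCm38), whereas the heavy chain genes lie in the H2 complex on chromosome 17.

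The classical heavy chains H2-K1 and H2-D1 rose together and by similar factors. H2-K1 (ENSMUSG00000061232, chromosome 17, 33996017 to 34000333) stood at 120.9, 65.2 and 70.7 CPM in the Caspase3 libraries, against 25.1, 19.7 and 17.5 CPM in the GFP libraries. H2-D1 (ENSMUSG00000073411, chromosome 17, 35262730 to 35267499) stood at 237.7, 133.8 and 139.6 CPM in the Caspase3 libraries, against 51.8, 36.1 and 29.9 CPM in the GFP libraries. For both genes Caspase3 replicate 1 was well above the other Caspase3 libraries, and the groups did not overlap. H2-K1 rose 4.12-fold (log2 fold change 2.04 ± 0.24 SE, edgeR adjusted p = 0.00492) and H2-D1 4.34-fold (2.12 ± 0.26 SE, edgeR adjusted p = 0.00569). Without GFP replicate 2 the adjusted p was 0.0562 for H2-K1 and 0.0584 for H2-D1. The ratio of H2-D1 to H2-K1 FPKM was 2.02 ± 0.05 in the Caspase3 group and 1.89 ± 0.18 in the GFP group (SD, n = 3 each).

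**Figure D2:**
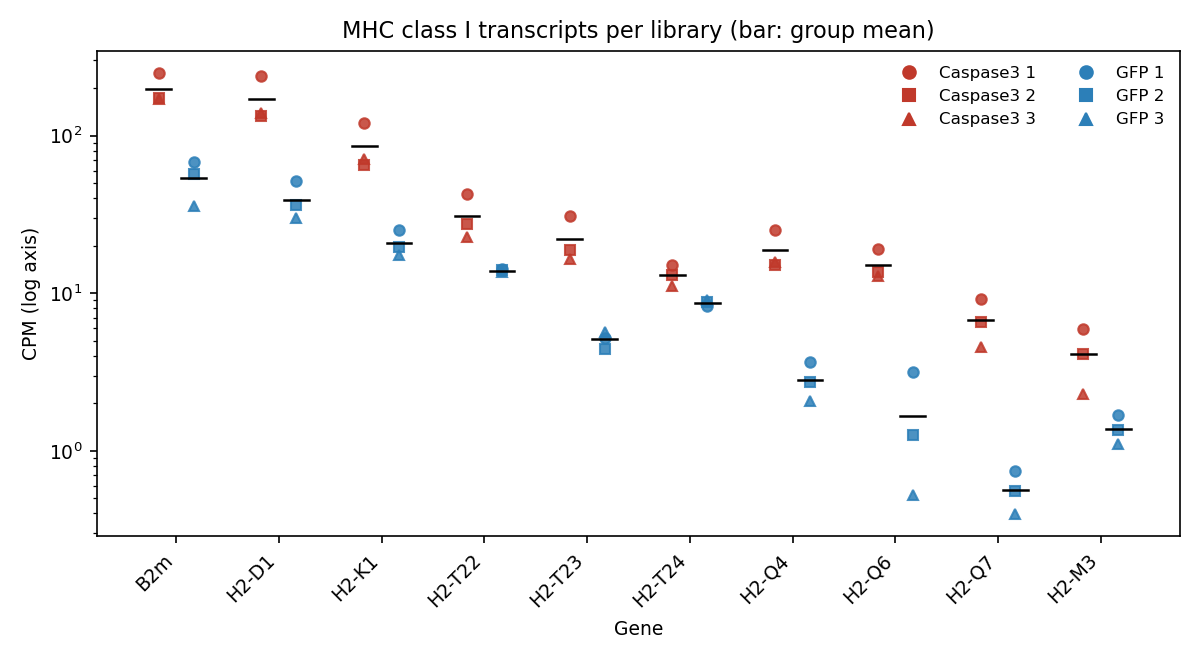
Level of each class I member in each library (y axis, CPM on a log axis; red, Caspase3; blue, GFP; marker shape, replicate number; black bar, group mean). For all 10 genes the 3 Caspase3 libraries lie above the 3 GFP libraries, most narrowly for H2-T24.

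The H2-Q genes had the largest fold changes of the set. H2-Q7, which encodes the Qa-2 antigen, stood at 9.24, 6.59 and 4.54 CPM in the Caspase3 libraries, against 0.746, 0.554 and 0.395 CPM in the GFP libraries. These GFP levels rested on 16, 14 and 9 counts. H2-Q7 rose 11.9-fold (log2 fold change 3.58 ± 0.34 SE, edgeR adjusted p = 0.00371), and 0.329% of tested genes had a larger fold change. H2-Q6, a close relative of H2-Q7, stood at 19.1, 13.6 and 12.8 CPM in the Caspase3 libraries, against 3.17, 1.27 and 0.527 CPM in the GFP libraries. Its GFP libraries spread 6.01-fold, more than those of any other member, while its Caspase3 libraries spread 1.5-fold. H2-Q6 rose 9.25-fold (log2 fold change 3.21 ± 0.46 SE, edgeR adjusted p = 0.00992). Without GFP replicate 1 its log2 fold change was 4.05, and without GFP replicate 2 it missed the threshold (adjusted p = 0.0835). H2-Q4 stood at 25.1, 15.1 and 15.8 CPM in the Caspase3 libraries, against 3.63, 2.73 and 2.06 CPM in the GFP libraries. It rose 6.64-fold (log2 fold change 2.73 ± 0.26 SE, edgeR adjusted p = 0.00371). H2-Q4 and H2-Q7 passed in all 6 fits that left out a library (highest adjusted p = 0.0494 for each).

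Of the H2-T genes, H2-T23 and H2-T22 rose and H2-T24 did not pass. H2-T23 encodes Qa-1, the ligand of the CD94/NKG2 receptors of NK cells. It stood at 30.7, 18.9 and 16.4 CPM in the Caspase3 libraries, against 5.22, 4.44 and 5.71 CPM in the GFP libraries, and rose 4.29-fold (log2 fold change 2.10 ± 0.24 SE, edgeR adjusted p = 0.00466; 0.0562 without GFP replicate 2). H2-T22, which is recognised by a subset of γδ T cells, stood at 42.6, 27.4 and 22.8 CPM in the Caspase3 libraries, against 14.2, 14.1 and 13.6 CPM in the GFP libraries. The GFP libraries lay within 1.04-fold of each other for this gene. H2-T22 rose 2.22-fold (log2 fold change 1.15 ± 0.21 SE, edgeR adjusted p = 0.0301), and missed the threshold without Caspase3 replicate 2 or any 1 GFP library (adjusted p = 0.0510 to 0.152). With all libraries kept, H2-T22 passed with DESeq2 (adjusted p = 6.31e-06) but not with limma-voom (adjusted p = 0.053). H2-T24 stood at 15.1, 13 and 11.1 CPM in the Caspase3 libraries, against 8.25, 8.79 and 9 CPM in the GFP libraries. Its log2 fold change was 0.59 ± 0.15 SE and it did not pass (edgeR adjusted p = 0.119), nor did it with DESeq2 (0.0674) or limma-voom (0.148).

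H2-M3, which presents N-formylated peptides of bacterial and mitochondrial origin, was the least abundant member by CPM in the Caspase3 group. It stood at 5.92, 4.14 and 2.29 CPM in the Caspase3 libraries, against 1.68, 1.35 and 1.1 CPM in the GFP libraries. The Caspase3 libraries spread 2.59-fold, the widest of the 10 members in that group. Its log2 fold change of 1.58 ± 0.36 SE did not pass with edgeR (adjusted p = 0.0825). It passed with DESeq2 (adjusted p = 0.00203) and without Caspase3 replicate 3 (edgeR, 0.0176), where its log2 fold change was 1.85.

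**Figure D3:**
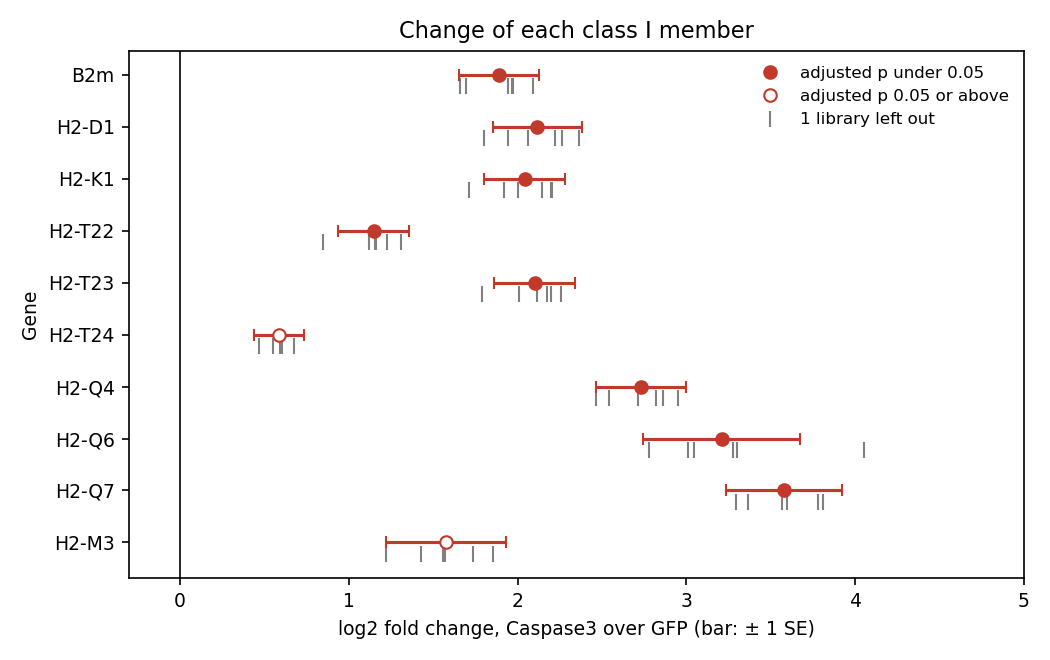
Log2 fold change of each class I member, Caspase3 over GFP (points, all 6 libraries; bars, ± 1 SE; filled points, adjusted p under 0.05; grey ticks, each of the 6 fits with 1 library left out). The values run between 0.59 for H2-T24 and 3.58 for H2-Q7, and H2-Q6 has the widest spread of ticks.

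The libraries of a group were ordered in much the same way by most members. In the Caspase3 group, replicate 1 was the highest library for 10 of 10 members, and replicate 3 the lowest for 7. In the GFP group, replicate 1 was the highest for 8 members and replicate 3 the lowest for 8. The exceptions were H2-T23 and H2-T24, for which GFP replicate 3 was the highest GFP library. The median deviation of the members from their group mean was 0.51 on the log2 scale in Caspase3 replicate 1 and -0.33 in GFP replicate 3.

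Levels per length were compared with FPKM, counts scaled to gene length and library size, as deposited. In the Caspase3 group the order was B2m at 228.7 ± 49.8 FPKM, H2-D1 at 65.3 ± 21.9 FPKM and H2-K1 at 32.4 ± 11.4 FPKM (SD, n = 3 each), and the ranges of these did not overlap. H2-T22, H2-T23, H2-Q6, H2-Q4 and H2-T24 followed with means between 5.92 and 8.96 FPKM, each overlapping the next. H2-M3 and H2-Q7 came last at 2.83 ± 1.24 and 1.57 ± 0.54 FPKM (SD, n = 3 each), and also overlapped. In the GFP group the first 3 places were the same, with B2m at 62.4 ± 19.0 FPKM, H2-D1 at 15.2 ± 4.36 FPKM and H2-K1 at 7.96 ± 1.5 FPKM (SD, n = 3 each). H2-T22 and H2-T24 followed at 4.08 ± 0.11 and 3.98 ± 0.18 FPKM and overlapped, ahead of H2-T23 at 1.77 ± 0.21 FPKM (SD, n = 3 each). H2-Q4, H2-M3 and H2-Q6 averaged 1.08, 0.955 and 0.793 FPKM in the GFP group with overlapping neighbours, and H2-Q7 was lowest at 0.132 ± 0.041 FPKM (SD, n = 3).

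Classical and non-classical genes were set side by side as sums of FPKM. The classical pair summed to 97.8 ± 33.3 FPKM in the Caspase3 group and 23.2 ± 5.86 FPKM in the GFP group (SD, n = 3 each), a ratio of means of 4.22. The 7 non-classical genes summed to 41.1 ± 11.6 FPKM in the Caspase3 group and 12.8 ± 1.06 FPKM in the GFP group (SD, n = 3 each), a ratio of means of 3.22. The median log2 fold changes were 2.08 for the 2 classical genes and 2.10 for the 7 non-classical genes, which ranged between 0.59 and 3.58. Of the gain in summed heavy chain FPKM, H2-D1 supplied 48.7%, H2-K1 23.8% and the non-classical genes 27.5%. The non-classical share of heavy chain FPKM was 28.5%, 32.7% and 28.5% in Caspase3 replicates 1, 2 and 3, against 32.0%, 36.6% and 39.5% in GFP replicates 1, 2 and 3. These shares overlapped between the groups, since Caspase3 replicate 2 lay above GFP replicate 1. With 3 libraries a group, an exact permutation test cannot go below 0.10, and no p is given for sums over members.

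The summed heavy chains kept pace with B2m. Summed heavy chain FPKM was 190.3, 113.8 and 112.6 in the Caspase3 libraries, against 43.6, 34.1 and 30.1 in the GFP libraries. Divided by B2m FPKM this gave 0.665, 0.562 and 0.570 in the Caspase3 libraries, against 0.555, 0.509 and 0.727 in the GFP libraries. The means were 0.599 ± 0.057 in the Caspase3 group and 0.597 ± 0.115 in the GFP group (SD, n = 3 each), a difference smaller than the spread in either group.

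**Figure D4:**
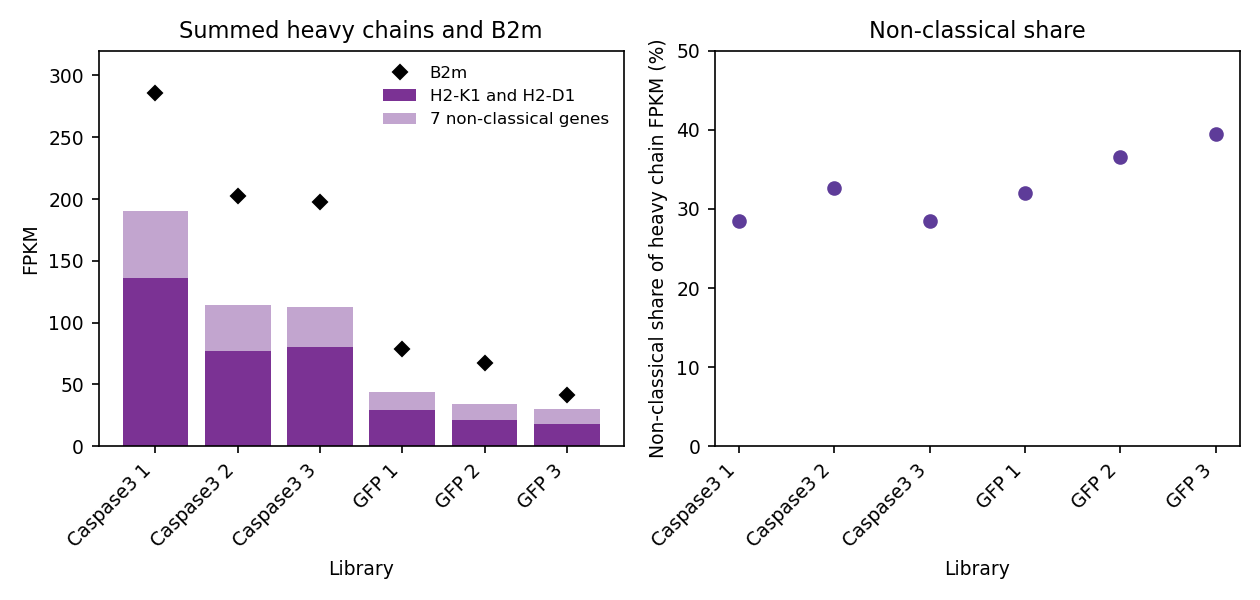
Left, summed FPKM of the classical (dark) and non-classical (light) heavy chains in each library, with B2m as diamonds. Right, the non-classical share of heavy chain FPKM in percent, with values of 28.5 to 32.7 for Caspase3 and 32.0 to 39.5 for GFP.

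Class I genes are similar in sequence, so reads may be divided among them. In GENCODE M21 transcripts, 31.5% of the distinct 100-base windows of H2-T22 also occur in another gene, and the shares were 14.1% for H2-Q4, 13% for H2-Q6 and 12% for H2-Q7. They were 3.59% for H2-D1, 3.15% for H2-T23 and 0.957% for H2-K1, and no 100-base window of B2m, H2-M3 or H2-T24 was shared. The share depends on the window, and the labels give no read length. With 50-base windows it was 53.5% for H2-T22, 36.4% for H2-Q4, 35% for H2-Q6, 26.5% for H2-Q7, 12.8% for H2-D1 and 9.63% for H2-K1. With 150-base windows it was 22.3% for H2-T22, 9.87% for H2-Q4, 5.99% for H2-Q6 and 5.90% for H2-Q7. At 150 bases A930015D03Rik held 21.9% of the H2-T22 windows, and Gm11131 held 9.87% of the H2-Q4 windows. No window of B2m was shared at any of these lengths. The sources used here do not give how shared reads were counted, so the split among H2-Q genes and the level of H2-T22 are uncertain. With the counts of H2-Q6 and H2-Q7 summed into 1 feature, it rose 9.95-fold (log2 fold change 3.31 ± 0.41 SE, edgeR adjusted p = 0.00569). All 8 H2-Q genes summed rose 5.99-fold (log2 fold change 2.58 ± 0.27 SE, edgeR adjusted p = 0.00422). All 6 H2-T genes summed rose 2.35-fold (log2 fold change 1.23 ± 0.19 SE, edgeR adjusted p = 0.0137). Exons of H2-Q4 and H2-T22 overlap the opposite-strand genes Gm11131 and A930015D03Rik. These had 2 to 16 and 3 to 9 counts per library, and without the strand setting their reads cannot be told apart. The genome annotation follows C57BL/6J, and a different H2 haplotype in these mice was not tested.

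Of 22 further genes named as H2 class I loci in the count table, 4 passed the filter on low counts and 10 had no count in any library. H2-Q5, annotated as a polymorphic pseudogene, rose (19, 20 and 24 counts in the Caspase3 libraries, against 3, 0 and 3 counts in the GFP libraries; log2 fold change 3.32 ± 0.59 SE, edgeR adjusted p = 0.0261). It passed in 1 of 6 fits that left out a library. H2-Q1, H2-T10 and H2-K2 did not pass (log2 fold changes 0.61, 0.68 and 1.39, edgeR adjusted p = 0.576, 0.546 and 0.154). Among class I-like genes outside the H2 complex, none of 5 tested passed with edgeR (1 at an unadjusted p under 0.05, 1 with DESeq2, none with limma-voom). Hfe, a regulator of iron uptake, was the gene at an unadjusted p under 0.05 and had a log2 fold change of 0.82 ± 0.22 SE (edgeR adjusted p = 0.166). The neonatal Fc receptor Fcgrt, the most abundant of them by CPM, had a log2 fold change of 0.26 ± 0.22 SE (edgeR adjusted p = 0.746).

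Of 13 transcription factors known to act on class I genes, 3 rose and none fell, against 1.53% and 0.114% of all tested genes. Nlrc5, the class I transactivator, stood at 11.1, 6.50 and 4.18 CPM in the Caspase3 libraries, against 1.49, 0.475 and 0.527 CPM in the GFP libraries (log2 fold change 3.14 ± 0.49 SE, edgeR adjusted p = 0.0151). Irf1 had a log2 fold change of 1.37 ± 0.23 SE (edgeR adjusted p = 0.019). For Nlrc5 and Irf1 the groups did not overlap and Caspase3 replicate 1 was the highest library, as for the class I members. Of all tested genes, 8.96% had groups that did not overlap with the Caspase3 group higher. The other 10, among them the RFX and NF-Y subunits that assemble with Nlrc5, did not pass and had log2 fold changes between -0.08 and 0.37. None of the 3 passed without GFP replicate 2, and neither Nlrc5 nor Irf1 passed without GFP replicate 3. Nlrc5 shares an exon stretch with 9330175E14Rik.

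Of 15 genes that supply and load class I peptides, 5 rose and none fell, against 1.53% and 0.114% of all tested genes. The peptide transporter subunit Tap1 had a log2 fold change of 2.38 ± 0.28 SE (edgeR adjusted p = 0.00489). The immunoproteasome subunits Psmb8 and Psmb9 had log2 fold changes of 2.35 ± 0.37 and 2.29 ± 0.38 SE (edgeR adjusted p = 0.0162 and 0.0198). The more general chaperones lay near no change, with log2 fold changes of 0.09 for Calr, -0.10 for Canx and 0.12 for Pdia3, and did not pass (edgeR adjusted p = 0.839, 0.815 and 0.754). Tap1 and Psmb9 overlap in their exons. None of the 5 passed without GFP replicate 2, and 1, Tap1, passed without GFP replicate 1 or 3. DESeq2 called 8 of the list higher and limma-voom 3.

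**Figure D5:**
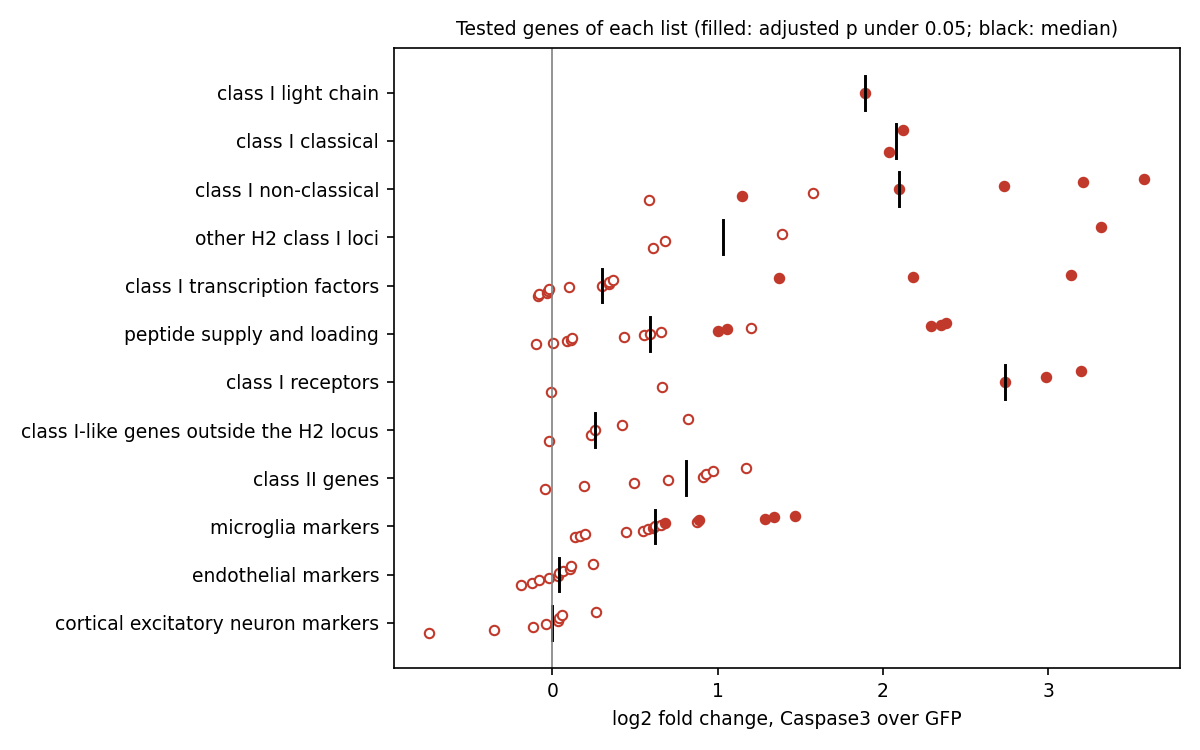
Log2 fold change of each tested gene, Caspase3 over GFP, by list (x axis, log2 fold change; filled points, edgeR adjusted p under 0.05; black lines, medians). The class I rows lie to the right of 0 throughout, with medians of 1.89, 2.08 and 2.10 for the light chain, classical and non-classical genes, and class II and class I-like rows hold no filled point.

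On the receptor side, 3 of 5 tested genes rose, against 1.53% of all tested genes. They were Cd8a and Cd8b1, which encode the coreceptor that binds classical class I molecules, and Cd3e, which belongs to the T cell receptor complex. Cd8a stood at 2.08, 2.09 and 1.14 CPM in the Caspase3 libraries, against 0.419, 0.158 and 0.088 CPM in the GFP libraries (log2 fold change 2.99 ± 0.50 SE, edgeR adjusted p = 0.0204). Cd8b1 and Cd3e had log2 fold changes of 3.20 ± 0.59 and 2.74 ± 0.46 SE (edgeR adjusted p = 0.0315 and 0.0195). Their GFP levels rested on 2, 3 and 2 counts for Cd8b1 and 3, 2 and 2 counts for Cd3e. Cd8b1 passed in 1 of 6 fits that left out a library, and Cd3e in 0 of 6. Pirb, a class I receptor of myeloid cells and neurons, did not pass (log2 fold change 0.66 ± 0.54 SE, edgeR adjusted p = 0.734). Without GFP replicate 2, GFP replicate 3 or Caspase3 replicate 2 no gene of this list passed. Without Caspase3 replicate 1 or GFP replicate 1, 1 did.

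MHC class II genes, which present peptides from outside the cell, were examined as the nearest related set. None of 8 tested passed with edgeR, DESeq2 or limma-voom (4 at an unadjusted p under 0.05), and the list's median log2 fold change was 0.81. H2-DMa, the most abundant of them by CPM, stood at 5.59, 5.32 and 6.23 CPM in the Caspase3 libraries, against 4.99, 5.27 and 4.74 CPM in the GFP libraries (edgeR adjusted p = 0.723). Its log2 fold change of 0.19 lay below the list's median. The tested class II genes ran between -0.04 for Ciita and 1.17 for H2-DMb1, with 0.91 for H2-Aa and 0.93 for Cd74. The difference between class I and class II genes was not tested. Transcripts of 10 interferon ligands, the signals known to raise class I genes, were at the detection limit, with 2 counts over the Caspase3 group and 1 over the GFP group in all. Ifng had no count in any library, which allows up to 3 counts in each.

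Markers of other cell types were summed to set beside the class I levels. In bulk tissue, a change in the number of cells of a type and a change in RNA per cell cannot be told apart. Microglia, which express class I genes, were represented by 15 markers. Of these, 6 rose, among them Trem2 and Tyrobp, and none fell, against 1.53% and 0.114% of all tested genes. The summed level was 578.3 to 779.6 CPM in the Caspase3 libraries and 400.4 to 476.5 CPM in the GFP libraries, with no marker at 0. The markers Trem2 and Tyrobp had log2 fold changes of 1.47 and 1.29 (edgeR adjusted p = 0.00631 and 0.00768). Resident markers P2ry12, Gpr34 and Fcrls did not pass, at log2 fold changes of 0.17, 0.20 and 0.13 (edgeR adjusted p = 0.588, 0.680 and 0.716). Divided by the summed FPKM of the 15 markers, B2m was 1.08, 0.947 and 0.988 in the Caspase3 libraries, against 0.498, 0.490 and 0.309 in the GFP libraries. The ratio of means was 2.32 after this division and 3.67 before it, and for the summed heavy chains it was 2.42 after it and 3.86 before it. No microglia marker passed without GFP replicate 2, and 2 passed without GFP replicate 3.

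Of 6 T and NK cell markers tested, Cd3e, Cd8a and Cd8b1 rose, the same genes that rose on the receptor list. Lck, Thy1 and Cd4 did not pass, at log2 fold changes of 1.15, 0.00481 and -0.86 (edgeR adjusted p = 0.129, 0.995 and 0.782). No marker of this list passed without Caspase3 replicate 2, GFP replicate 2 or GFP replicate 3. Of all 15 markers, 3 had no count in the GFP group. Leaving out Thy1, which neurons express, the other 14 summed to 11.8, 8.46 and 5.68 CPM in the Caspase3 libraries, against 2.42, 1.58 and 5.18 CPM in the GFP libraries. Cd4 supplied 4.13 CPM of the sum in GFP replicate 3, which lay just under that of Caspase3 replicate 3. Monocyte and neutrophil markers summed to 60.8 to 130.3 CPM in the Caspase3 group and 32.5 to 55.5 CPM in the GFP group. Lyz2 rose (log2 fold change 1.42 ± 0.23 SE, edgeR adjusted p = 0.0185), and 5 of 6 tested did not pass with edgeR. Of the 6 tested, 5 had an unadjusted edgeR p under 0.05. DESeq2 called 4 of the list higher and limma-voom 2. Lyz2 missed the threshold without Caspase3 replicate 3, GFP replicate 2 or GFP replicate 3. Ly6g, a neutrophil marker, had no count in any library. Of 8 astrocyte markers Gfap rose (log2 fold change 1.31 ± 0.19 SE, edgeR adjusted p = 0.0099; 0.0699 without GFP replicate 2). The astrocyte sum was 7790.2 to 10292.4 CPM in the Caspase3 libraries and 8692.7 to 10914.5 CPM in the GFP libraries. Endothelial markers summed to 554.3 to 636.6 CPM in the Caspase3 libraries and 508.2 to 667.7 CPM in the GFP libraries, and none of 10 passed (edgeR; none at an unadjusted p under 0.05, none higher with DESeq2 or limma-voom). B and plasma cell markers summed to 15.7 to 33.0 and 11 to 26.1 CPM and choroid plexus and meninges markers to 63.0 to 143.7 and 41.6 to 79.5 CPM in the Caspase3 and GFP libraries, and edgeR called none of either list. At an unadjusted p under 0.05 there were 1 and 3 of these, and DESeq2 called 0 and 1 higher. The part of these cell types in the class I result was not tested, and the division by microglia markers is a description only.

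The genes whose pattern was most like that of B2m were named by Pearson's r of log2(CPM + 0.5) over the 6 libraries, which fall into 2 groups and share their depth. Class I members and genes with Gm numbers or Rik names were left out of this choice. The genes named were Clec7a (r = 0.996), a lectin receptor of myeloid cells, Lst1 (0.996), Treml2 (0.995), Shisa5 (0.994), Tmem106a (0.994) and the microglial protein Aif1 (0.993). Among them only Lst1 did not pass (edgeR adjusted p = 0.274). Clec7a stood at 5.16, 3.05 and 2.68 CPM in the Caspase3 libraries, against 0.979, 0.713 and 0.264 CPM in the GFP libraries, in the same order of libraries as B2m within each group. Among the heavy chains r with B2m was highest for H2-Q4, H2-D1 and H2-Q6 (0.991, 0.990 and 0.990) and lowest for H2-T24 (0.893). Of all tested genes, 12 had a larger r with B2m than H2-Q4 and 555 a larger r than H2-T24.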

How the data were processed

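Poly(A) RNA of 6 piriform cortex libraries (3 Caspase3, 3 GFP) was sequenced after TRIzol isolation and a library kit that labels the second strand, per the labels' protocols. The submitters' processing notes list the tools HISAT2, featureCounts, DESeq2 and the genome builds GRCm38, mm10, without saying which did what. The deposited gene table holds raw read counts per the file headers. The deposited FPKM values equalled count over gene length over a constant of 95.6% to 105.6% of each library's total. Strand setting and treatment of multi-mapped reads are not given in the sources used here.

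Counts of all genes were fitted in R 4.3.3 by edgeR 4.0.16 (genes kept by filterByExpr, TMM, glmQLFTest, intercept and group, 16721 genes), with Benjamini-Hochberg adjusted p under 0.05 as the threshold. Each SE was taken as the size of the log2 fold change over the root of the F statistic. The test was tried on simulated counts with known changes. Groups and replicate numbers came from the sample titles. DESeq2 1.42.0, limma 3.58.1 (voom, and log2(FPKM + 0.1) or log2(FPKM + 1)), other scalings and filters, a replicate block, summed H2-Q and H2-T counts and each library left out were alternatives. Named genes were the members, Gad2, up to 3 changed genes per context list or its highest tested gene, and the 6 genes most like B2m; further list genes were named after their values were seen. The members and lists were chosen with earlier results of these data known. The list of further H2 class I loci holds H2-Ke6, which is named for its place in the complex and is no class I gene. Within groups, libraries were farther apart than sampling noise allows (mean chi-square per gene 12.6 to 32.8). Figures were drawn with Matplotlib 3.10.9. Some list genes that the rule would name are not reported here.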

Additional observations from a re-analysis of the deposited data

How the results depend on the processing

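All 10 members had positive log2 fold changes in each of the 16 alternative fits. The number of members past the threshold was 7 to 10 in the 10 alternatives that kept every library and tested genes singly at 0.05, and 2 to 9 with a library left out (2 without GFP replicate 2, 7 to 9 otherwise). It was 5 of 6 features with all H2-Q genes and all H2-T genes each summed, where fewer features were counted. Over all genes 274 passed. With no filter on low counts 913 passed, with DESeq2 495, with limma on log2(FPKM + 1) 170 and at a threshold of 0.01 118, and 17 to 285 passed with a library left out (17 without GFP replicate 2, 144 without GFP replicate 3). The cause was not tested. With the sample number as a replicate block 421 genes and 9 members passed, the added member being H2-M3 (adjusted p = 0.018). The labels do not say whether same-numbered samples were paired. Their deviations from the group means correlated at 0.070, 0.207 and 0.038, against -0.155 to 0.0853 for samples of unlike number. Not every sample correlated best with its own number, and these values do not settle whether samples were paired. The Caspase3 minus GFP difference in the non-classical share was -6.18 percentage points, -9.37 with H2-Q6 and H2-Q7 left out of the sum, and -8.19 to -4.43 with a library left out. The same difference in the ratio of heavy chains to B2m was 0.00212, -0.0225 without H2-Q6 and H2-Q7, and -0.042 to 0.0672 with a library left out. Depth limits the members with few counts: H2-Q6, H2-Q7 and H2-M3 had 9 to 68 counts in each GFP library.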

Other observations

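Some receptor and class I transcripts were too scarce to test and are given as counts summed over the 3 libraries of a group. H2-M2 had 12 counts in the Caspase3 group and 0 in the GFP group. Klrk1, which encodes the activating NK cell receptor NKG2D, had 24 counts in the Caspase3 group and 1 in the GFP group. Klrc1, which encodes an NKG2 receptor for the H2-T23 product, had 10 and 0 counts in the Caspase3 and GFP groups. The NKG2D ligand gene H60b had 7 counts in the Caspase3 group and 19 in the GFP group, of which 18 came from GFP replicate 3. H2-M5 had 22 counts in the Caspase3 group and 27 in the GFP group. These counts carry no test.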
